A study of Homo sapiens with 6 samples.

Results

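The 10 genes described here are 3 FOXO transcription factors (FOXO1, FOXO3 and FOXO4), the insulin receptor INSR with its substrates IRS1 and IRS2, the phosphoinositide 3-kinase (PI3K) inhibitor PIK3IP1, the ubiquitin ligase adaptor KLHL24, and the arrestin-domain proteins TXNIP and ARRDC4. They were taken by symbol from a table of 27216 rows, and all 10 have a row. The table holds RNA-sequencing values of H1975, an EGFR-mutant human lung adenocarcinoma line whose genotype is labelled WT, in 2 groups of 3 samples. Parental cells were harvested before treatment (0 h), and adapted cells were those still attached after 72 h in osimertinib (Osi, 1000 nM per the labels), an EGFR tyrosine kinase inhibitor, once apoptotic cells had been rinsed off. DMSO is named in the parental columns and in the series' design as the alternative to Osi, but how long parental cells were kept in it is not stated, and with 0 h as the labelled time, time in culture and treatment cannot be told apart. In the labels, RNA of all 6 samples was treated with RNase R, an enzyme that degrades linear RNA, before library construction. The study describes its data in general as coming from independent experiments, but the labels do not say whether the 3 samples of a group were separate cultures, so p-values measure only the spread between these samples, which may be technical.

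FOXO factors sit at the end of the insulin and growth factor pathway. The activated receptor recruits IRS proteins, these recruit PI3K, and AKT then phosphorylates FOXO proteins, which are held in the cytoplasm by 14-3-3 proteins. When PI3K and AKT activity drops, FOXO proteins enter the nucleus, where their known targets include the receptor and adaptor genes INSR and IRS2, so that the pathway feeds back on itself. EGFR signals through the same PI3K and AKT step. TXNIP and ARRDC4 are alpha-arrestins that restrain glucose uptake and are known targets of the glucose-responsive factor MondoA with its partner MLX. FOXO activity is set largely by phosphorylation and location, which RNA values do not measure.

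Levels are log2 values taken as log2(FPKM + 1). The unit is not named. If it is FPKM (fragments scaled by transcript length and sequencing yield), the values are adjusted for gene length. How evenly RNase R acted on different transcripts was not measured. Levels set side by side between genes therefore describe these values and not the amounts of RNA in the cells. Sequencing depth is unknown. SDs come from the 3 samples of each group alone, and SEs and intervals from limma also draw on the spread of the other tested rows. Adapted replicate 1 was the lowest adapted sample for PIK3IP1, IRS1, TXNIP, ARRDC4, FOXO1 and FOXO3 and the highest for IRS2 and INSR. For ARRDC4 and INSR it was not set apart, as the other adapted samples differed from each other by more. Without it, 7 of the 9 tested genes still passed the threshold, and the log2 fold changes were 2.73 for PIK3IP1, 1.27 for IRS1, 2.05 for TXNIP, 0.68 for IRS2 as deposited and 0.19 for INSR. Across genes, which are not independent replicates, parental samples correlated at 0.9972 to 0.9975 and adapted samples at 0.9906 to 0.9961. Of 10 epithelial markers, EPCAM, CDH1, KRT7, KRT8, KRT18, KRT19, NKX2-1 and NAPSA were detected in all samples, and the surfactant genes SFTPB and SFTPC were at or near 0. Of the 8 tested, 2 rose and 4 fell (limma, 75.0% called beside 56.9% of all tested rows). KRT7 (1.07) and NKX2-1 (0.47) rose, and KRT8 (-0.28), KRT18 (-0.57), KRT19 (-0.75) and NAPSA (-0.81) fell on the log2 scale. Of 6 fibroblast markers, 3 exceeded 0.2 in any sample. The summed FPKM of the list was 3.04 to 3.15 in parental and 8.59 to 9.32 in adapted samples, mostly COL1A1. Between group means on the log2 scale, LUM went from 0.05 to 0.61 and COL3A1 from 0.01 to 0.55 (1.37 in adapted replicate 1). COL1A2, DCN and PDGFRA were at or near 0. Of 6 leukocyte and endothelial markers, 3 exceeded 0.2. The summed FPKM of the list was 75.4 to 77.7 in parental and 14.8 to 29.7 in adapted samples, mostly CD68. PECAM1 went from 1.22 to 0.09 and VWF from 0.03 to 0.24. PTPRC, CD3E and MS4A1 were at or near 0. The part of these marker shifts in the results was not tested.

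In GENCODE v29 (GRCh38), FOXO1 lies at chr13:40469953-40666597 (minus strand), FOXO3 at chr6:108559835-108684774 (plus) and FOXO4 at chrX:71096197-71103535 (plus). INSR lies at chr19:7112255-7294034, IRS1 at chr2:226731317-226799759 and IRS2 at chr13:109752698-109786568 (all minus). PIK3IP1 lies at chr22:31281593-31292534 and TXNIP at chr1:145992435-145996600 (both minus), and KLHL24 at chr3:183635568-183684477 and ARRDC4 at chr15:97960698-97973838 (both plus). The table gives 1 value per gene.

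Of the 10 genes, 9 passed a filter on low values (mean log2 value of at least 1), and ARRDC4 did not. Of these 9, 7 rose in adapted cells and 0 fell (limma, Benjamini-Hochberg adjusted p under 0.05 over 12656 rows), a share of 77.8%, while 56.9% of all tested rows passed, 30.7% higher and 26.2% lower. The median log2 fold change of the 9 genes was 0.96, and that of all tested rows 0.028. The groups did not overlap in 8 of the 9, or 88.9%, where 66.3% of all tested rows had no overlap. PIK3IP1, TXNIP and IRS1 also changed by at least 1 on the log2 scale, as 10.5% of all tested rows did. In IRS2, the adapted values carried a constant that the rest of the gene's values did not. Its call ended when the constant was subtracted, which left 6 of the 9 (66.7%). Its groups then also overlapped, so IRS2 is among the 8 without overlap only as deposited. In bulk RNA, fewer cells expressing a gene and less RNA per cell cannot be told apart.

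**Figure D1:**
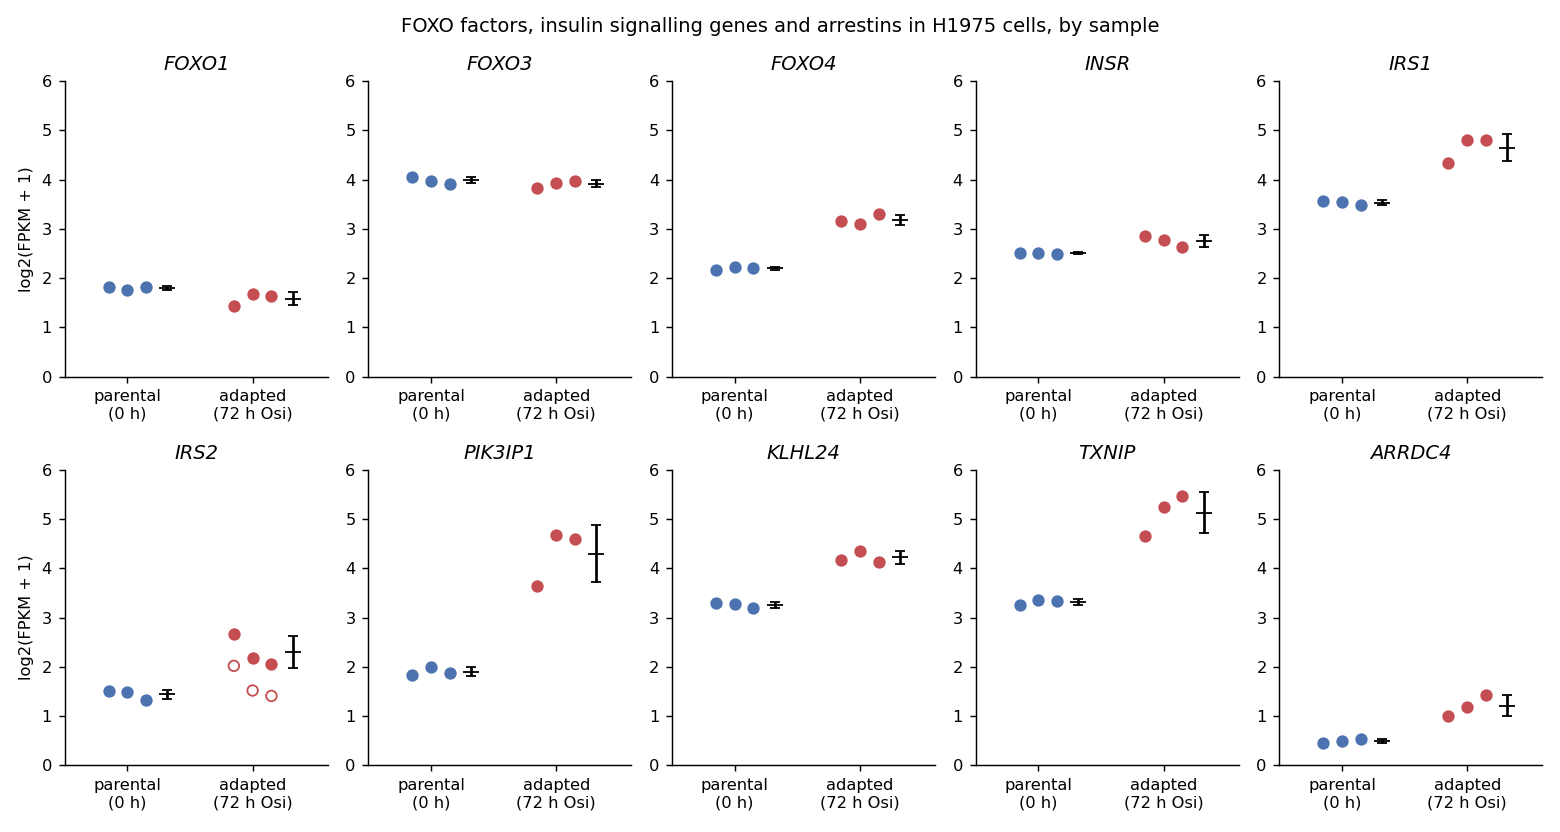
Level of each of the 10 genes in log2(FPKM + 1) for the 3 parental (blue) and 3 adapted (red) samples, with the group mean and SD as a black bar. Open circles in the IRS2 panel are the adapted values less 0.65. PIK3IP1 moved from 1.90 to 4.30 between group means, FOXO3 lay at 3.99 and 3.92, and the open circles of IRS2 overlap its parental values.

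Of the 3 FOXO genes, FOXO4 rose in adapted cells, and FOXO1 and FOXO3 did not pass the test. FOXO3 had the highest values of the FOXO genes in both groups. It measured 4.05, 3.98 and 3.92 log2(FPKM + 1) in parental samples and 3.83, 3.94 and 3.98 in adapted samples. The groups overlapped, and the log2 fold change was -0.07 (95% interval -0.23 to 0.09, adjusted p = 0.419, limma). FOXO1, the FOXO gene best known for control of gluconeogenesis, measured 1.83, 1.75 and 1.82 in parental and 1.43, 1.67 and 1.63 in adapted samples. Its groups did not overlap, but the log2 fold change of -0.22 (SE 0.09) did not pass the threshold (limma, adjusted p = 0.0703), although it did after quantile normalization (-0.29, adjusted p = 0.0314). FOXO4, the X-linked member of the family, measured 2.17, 2.23 and 2.20 in parental and 3.15, 3.10 and 3.30 in adapted samples. FOXO4 rose by 0.99 on the log2 scale (SE 0.08, limma, adjusted p = 6.09e-05), and its FPKM went from 3.59 ± 0.0927 to 8.10 ± 0.661 (mean ± SD, n = 3 per group).

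FOXO6, the remaining member of the family and not one of the 10 genes, measured 0.81, 0.85 and 0.77 in parental and 2.1, 2.79 and 2.85 in adapted samples. It rose by 1.77 on the log2 scale (SE 0.19, limma, adjusted p = 2.51e-04) and passed the filter only through its adapted values. The summed FPKM of the 4 FOXO genes was 21.7 ± 0.698 in parental and 29.3 ± 2.98 in adapted cells (mean ± SD, n = 3 per group). FOXO3 made up 68.5% ± 1.04 of that sum in parental and 48.3% ± 2.26 in adapted cells, and FOXO1 11.5% ± 0.543 and 6.79% ± 0.405. FOXO4 made up 16.6% ± 0.821 and 27.7% ± 2.41, and FOXO6 3.47% ± 0.185 and 17.2% ± 4.02. None of these 4 shares overlapped between groups (two-sided exact permutation test, p = 0.1 for each, the smallest that 3 against 3 allows). The shares were computed after the values had been seen. As parts of the same sum they depend on each other, so they are not separate results. FOXO3's own values overlapped between groups. FOXO3 has a near-identical pseudogene, FOXO3B, and exons of FOXO1 overlap those of LINC00598 on the same strand, and how shared reads were counted is not stated.

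**Figure D2:**
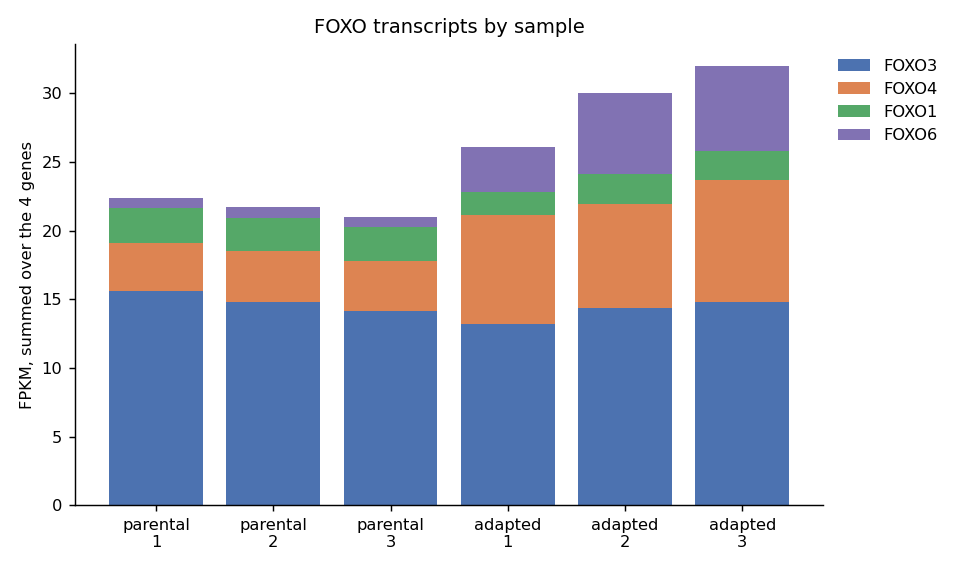
FPKM of FOXO3, FOXO4, FOXO1 and FOXO6 stacked for each of the 6 samples, so that the height of a bar is their sum. The sum ranges from 21.0 to 22.4 in parental and from 26.1 to 32 in adapted samples, and the FOXO4 and FOXO6 segments are taller in every adapted sample.

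Related genes were also compared within each sample, as differences of their log2(FPKM + 1) levels. FOXO4 lay 1.79 ± 0.08 below FOXO3 in parental and 0.73 ± 0.09 below it in adapted cells (mean ± SD, n = 3 per group). FOXO1 lay 0.40 ± 0.07 below FOXO4 in parental and 1.61 ± 0.15 below it in adapted cells. FOXO1 lay 2.18 ± 0.07 below FOXO3 in parental and 2.34 ± 0.06 below it in adapted cells. This change of -0.16 was -0.24 with 0.1 in place of the added 1. In each of these 3 differences the groups did not overlap (two-sided exact permutation test, p = 0.1, or 0.12 adjusted over the 6 differences computed).

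Among the receptor and its substrates, IRS1 had the clearest change. INSR, the insulin receptor, measured 2.52, 2.52 and 2.49 log2(FPKM + 1) in parental and 2.86, 2.77 and 2.63 in adapted samples. All adapted values were higher, by a small margin, and INSR rose by 0.24 (SE 0.08, limma, adjusted p = 0.0339). That call was lost when parental replicate 1, 2 or 3 or adapted replicate 2 was left out (adjusted p = 0.0873, 0.093, 0.106 and 0.0776), without the filter (0.0571) and after quantile normalization (0.0641). IGF1R, the closest relative of INSR, rose from 2.76 ± 0.04 to 3.51 ± 0.06 (SD, n = 3 per group, with adjusted p = 9.55e-05 by limma). Within samples, INSR lay 0.25 ± 0.04 below IGF1R in parental and 0.76 ± 0.13 below it in adapted cells, with no overlap (exact permutation test, p = 0.1, adjusted 0.12).

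IRS1, the adaptor that links insulin and IGF receptors to PI3K, measured 3.57, 3.55 and 3.48 in parental and 4.34, 4.81 and 4.80 in adapted samples. The groups were apart by more than the spread within either, with adapted replicate 1 the lowest of its group. IRS1 rose by 1.11 (SE 0.13, limma, adjusted p = 3.2e-04), and its FPKM went from 10.6 ± 0.362 to 24.4 ± 4.43 (mean ± SD, n = 3 per group).

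IRS2, the substrate whose gene is a known FOXO target, measured 1.5, 1.48 and 1.33 in parental and 2.67, 2.17 and 2.06 in adapted samples as deposited. The groups did not overlap, and the log2 fold change was 0.86 (SE 0.16, limma, adjusted p = 0.00326). Linear values in this table are numbers with 6 decimals, and the adapted values of IRS2 are not, while its parental values are. Subtracting 0.65 from each adapted value, on the log2 scale, returned all 3 to 6 decimals. The adapted values were then 2.02, 1.52 and 1.41, which overlap the parental values. The log2 fold change was then 0.21 (95% interval -0.17 to 0.60, limma, adjusted p = 0.3). Of the 10 genes, IRS2 was the 1 with such a constant. As deposited, IRS2 lay 2.1 ± 0.05 below IRS1 in parental and 2.35 ± 0.59 below it in adapted cells, with overlap (exact permutation test, p = 0.4). For IRS2 minus IRS1, adapted replicate 1 (-1.66) lay above all parental values, and replicates 2 and 3 (-2.64 and -2.74) below them. With the constant subtracted, the change of this difference was -0.90 with no overlap (exact permutation test, p = 0.1). Exons of IRS2 also overlap those of AL162497.1 on the opposite strand, and whether counting used strand is not stated.

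The letters CAAAACA, the core of the insulin response element that FOXO factors bind in metabolic genes, were sought on both strands in windows from 250 bases before to 50 after the RefSeq start (GRCh38.p14) of all genes. They were in 4.92% of the 35116 windows. The 10 genes together had 15 windows, and windows of IRS2 and KLHL24 held the letters. The IRS2 match begins 40 bases upstream of the start. It is shown because IRS2 is the substrate gene with a match, in the 100 bases before the start (chr13:109786584-109786683, minus strand, 5′ to 3′ of the gene), with the match in capitals as its reverse complement TGTTTTG.
IRS2: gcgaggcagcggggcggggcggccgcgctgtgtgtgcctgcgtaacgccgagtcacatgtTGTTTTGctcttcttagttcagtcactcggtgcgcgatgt

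PIK3IP1 and KLHL24 were both higher in adapted cells, PIK3IP1 by the largest amount of the 10 genes. PIK3IP1 encodes a membrane protein that binds the catalytic subunit of PI3K and restrains it. It measured 1.83, 2.00 and 1.88 log2(FPKM + 1) in parental and 3.64, 4.68 and 4.59 in adapted samples. Adapted replicate 1 was about 1 log2 unit below the other adapted samples and still above every parental sample. PIK3IP1 rose by 2.40 (SE 0.25, limma, adjusted p = 2.24e-04), and its FPKM went from 2.75 ± 0.228 to 19.7 ± 7.13 (mean ± SD, n = 3 per group), a ratio of 7.16. Its exons overlap those of PIK3IP1-AS1 on the opposite strand, whose reads cannot be told apart from its own if strand was not used.

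KLHL24, a substrate adaptor of a cullin ubiquitin ligase that acts on keratins, measured 3.29, 3.27 and 3.19 in parental and 4.16, 4.36 and 4.13 in adapted samples. The spread within each group was small beside the gap between them. KLHL24 rose by 0.96 (SE 0.08, limma, adjusted p = 8.29e-05), with FPKM from 8.53 ± 0.38 to 17.6 ± 1.68 (mean ± SD, n = 3 per group). Its insulin response match begins 32 bases upstream of the RefSeq start and lies within an exon of an annotated KLHL24 transcript. It is shown, with the same letters in capitals, in the 27 bases at chr3:183635581-183635607 (plus strand).
KLHL24: tgacgctcagTGTTTTGgcccggacgg

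**Figure D3:**
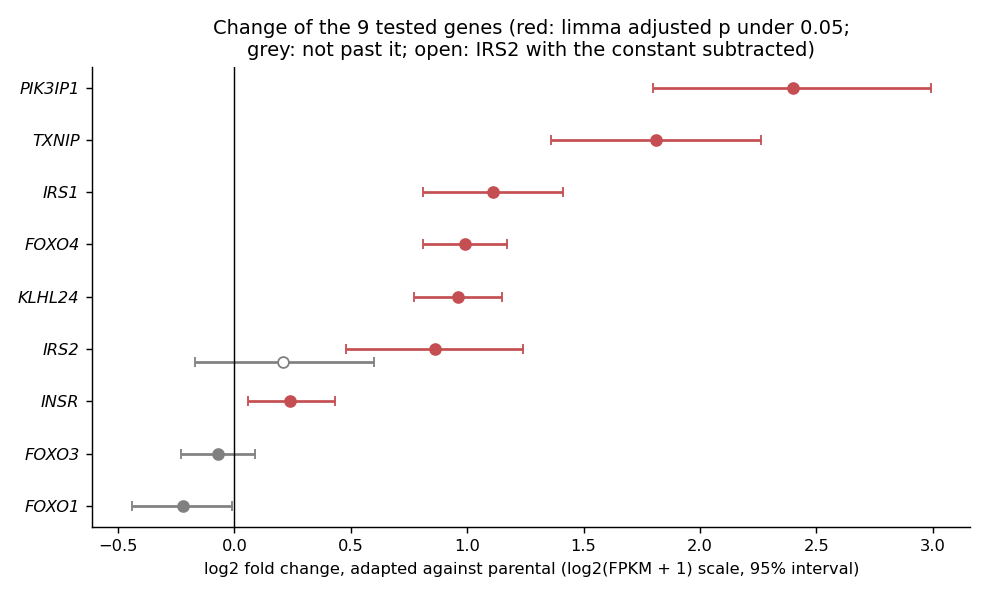
Log2 fold change of the 9 tested genes, adapted against parental, with the 95% interval from limma. Red points passed an adjusted p of 0.05 and grey points did not, and the open point is IRS2 with 0.65 subtracted from its adapted values. PIK3IP1 (2.40) and TXNIP (1.81) lie farthest to the right, and the intervals of FOXO3 and of IRS2 with the constant subtracted include 0.

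Both alpha-arrestins were higher in adapted cells. TXNIP, which binds and inhibits thioredoxin and promotes removal of glucose transporters from the cell surface, measured 3.25, 3.36 and 3.34 in parental and 4.66, 5.25 and 5.47 in adapted samples. Adapted replicate 1 was again the lowest of its group, and no adapted value came near the parental ones. TXNIP rose by 1.81 (SE 0.19, limma, adjusted p = 2.17e-04), with FPKM from 8.98 ± 0.427 to 34.9 ± 9.80 (mean ± SD, n = 3 per group). ARRDC4 measured 0.45, 0.50 and 0.53 in parental and 1.01, 1.18 and 1.43 in adapted samples, with no overlap. Its FPKM went from 0.41 ± 0.0402 to 1.33 ± 0.345 (mean ± SD, n = 3 per group). ARRDC4 was tested only in the fit without the filter, where it rose by 0.72 on the log2 scale (SE 0.12, limma, adjusted p = 0.00472). At so low a level the added 1 compresses the change. Within samples, TXNIP lay 2.82 ± 0.03 above ARRDC4 in parental and 3.92 ± 0.24 above it in adapted cells (exact permutation test, p = 0.1, adjusted 0.12). That widening of 1.09 was 0.44 with 0.1 in place of the added 1.

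The other motifs were sought in the same windows, on both strands. Shares are per window and not per gene, and the 10 genes together had 15 windows. The FOXO core GTAAACA was in 3.42% of all windows. Among the 10 genes it was in those of TXNIP (from 124 bases upstream of the start), PIK3IP1 (from base 17 downstream, in 1 of its windows) and FOXO4 (from base 24 downstream). The E-box CACGTG, to which MondoA with MLX can bind, was in 7.26% of windows, among them ARRDC4 (from 210 bases upstream) and IRS1 (from base 36 downstream). A pair of boxes CACGNG set 5 bases apart, the form of a carbohydrate response element, was in 20 of the 35116 windows (0.057%), and TXNIP had it from 88 bases upstream. The pattern overlaps the E-box letters where N is T. The TXNIP stretch (chr1:145996630-145996729, minus strand) and the ARRDC4 stretch (chr15:97960453-97960552, plus strand) are shown to compare the 2 arrestin genes, with the FOXO core and the pair of boxes in capitals in TXNIP and the E-box in ARRDC4.
TXNIP: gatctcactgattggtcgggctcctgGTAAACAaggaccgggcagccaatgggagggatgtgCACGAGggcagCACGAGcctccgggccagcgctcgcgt
ARRDC4: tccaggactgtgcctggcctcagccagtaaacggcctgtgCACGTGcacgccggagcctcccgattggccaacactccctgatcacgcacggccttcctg
A match describes these letters in this window and not a bound site. No binding was measured, and windows of FOXO1, FOXO3 and INSR held none of the 4 motifs.

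By level, the order of the 10 genes differed between the groups. In parental cells FOXO3 was highest at 3.99 ± 0.06 (SD, n = 3), followed by IRS1, TXNIP, KLHL24, INSR, FOXO4, PIK3IP1, FOXO1, IRS2 and ARRDC4, and the neighbours TXNIP and KLHL24, and PIK3IP1 and FOXO1, overlapped. In adapted cells TXNIP was highest at 5.13 ± 0.42, followed by IRS1, PIK3IP1 and KLHL24, each overlapping the next. FOXO3 followed at 3.92 ± 0.08 and FOXO4 at 3.18 ± 0.10. INSR and IRS2 as deposited followed and overlapped, and FOXO1 and ARRDC4 were lowest. With its constant subtracted, IRS2 (1.65 ± 0.33) lay below all INSR values and overlapped FOXO1 (1.58 ± 0.13).

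Known FOXO target genes other than the 10 moved in both directions. Of 31 such genes, 24 were tested, and 10 rose, 6 fell and 8 did not pass (limma, 66.7% called beside 56.9% of all tested rows), with a median log2 fold change of 0.12. SESN1, a stress-induced sestrin gene counted among the 10 (0.95 ± 0.14 in parental and 1.93 ± 0.37 in adapted cells), passed the filter only through its adapted values. CITED2, a transcriptional coregulator, rose from 3.17 ± 0.03 to 5.0 ± 0.10 (SD, n = 3 per group, with adjusted p = 3.02e-06 by limma). GABARAPL1, an autophagosome protein, was next at 1.53, or 0.88 less the constant of 0.65 in its adapted values, and it passed either way (limma, adjusted p = 4.17e-06 and 4.13e-05). PRDX3, a mitochondrial peroxidase, had 1.17, or 0.51 less a constant of 0.66. With its constant subtracted, PRDX3 lay below targets that carried none, among them ULK1 (0.87) and PINK1 (0.83). SOD2, the mitochondrial superoxide dismutase, fell by 1.95 on the log2 scale, from 7.94 ± 0.12 to 5.99 ± 0.17. FBXO32, a ubiquitin ligase of muscle atrophy, fell by 1.09, and BBC3, which encodes the death protein PUMA, fell by 0.96. The targets FASLG, G6PC, PCK1 and TRIM63 were at or near 0 in every sample.

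Of 23 kinases, 14-3-3 proteins and other regulators of FOXO proteins, all were tested, 5 rose, 10 fell and 8 did not pass. That was 65.2% called, beside 56.9% of all tested rows, with a median of -0.13. With constants subtracted, 4 rose and 9 fell of 22 tested, with a median of -0.08. Without parental replicate 1, 2 or 3 the calls went from 15 to 11, 10 and 11. Beside FOXO6, CREBBP, an acetyltransferase that modifies FOXO proteins, rose from 3.45 ± 0.06 to 3.99 ± 0.22 (SD, n = 3 per group, with adjusted p = 0.00488 by limma). The kinase genes SGK2 and SGK1, whose products phosphorylate FOXO proteins as AKT does, both fell. SGK2 measured 2.90, 2.87 and 3.01 in parental and 1.27, 0.61 and 0.38 in adapted samples, passing the filter only through its parental values, and SGK1 fell by 0.80. SFN, a 14-3-3 gene, fell by 0.65. AKT1 rose by 0.45 (limma, adjusted p = 6.34e-04), with all 6 values on 6 decimals. AKT2 carried a constant, and -0.20 became -0.0044 once 0.2 was taken off its parental values.

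Along the path from the receptor to AKT, 23 of 26 genes were tested, and 11 rose, 6 fell and 6 did not pass. That was 73.9% called, beside 56.9% of all tested rows, with a median of 0.18. With constants subtracted, 9 rose and 5 fell of 22 tested, with a median of 0.14. PTPN1, the phosphatase that dephosphorylates the insulin receptor, rose from 4.22 ± 0.02 to 5.07 ± 0.03 (SD, n = 3 per group, with adjusted p = 2.31e-05 by limma). PIK3R1, the main regulatory subunit of PI3K, rose by 0.84. PIK3R3, another regulatory subunit, rose by 2.34 as deposited and by 1.69 less the constant of 0.65 (limma, adjusted p = 1.02e-04 and 4.53e-04). PIK3CA, the catalytic subunit that PIK3IP1 restrains, had 0.76 as deposited and 0.11 less the same constant, and it then no longer passed (limma, adjusted p = 0.255). GAB1, a docking protein that links EGFR to PI3K, fell by 0.76, and TRIB3, a pseudokinase that binds AKT, fell by 0.75.

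Of 13 genes of the mTOR complexes and their inputs, 7 rose, 3 fell and 3 did not pass. That was 76.9% called, beside 56.9% of all tested rows, with a median of 0.35. With constants subtracted, 6 rose and 3 fell, with a median of 0.19. DEPTOR, an inhibitor of mTOR, rose by 1.39 before and by 0.74 after 0.65 was taken off. MTOR itself had 0.86 and 0.21 (limma, adjusted p = 0.0264 with the constant subtracted), and TSC1 0.66 and 0.01 (adjusted p = 0.939). TSC2, which had no constant, rose by 0.65 (limma, adjusted p = 2.45e-04). MAPKAP1, a subunit of mTOR complex 2 with no constant, rose by 0.84. EIF4EBP1, a translation repressor that mTOR phosphorylates, fell by 0.54, RICTOR, the defining subunit of mTOR complex 2, fell by 0.53, and RPS6KB1, the S6 kinase, fell by 0.20.

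In the list around MondoA, the arrestins and thioredoxin, 16 of 19 genes were tested. Of these, 3 rose, 8 fell and 5 did not pass (68.8% called, beside 56.9% of all tested rows). The median was -0.17, with no constants. Without parental replicate 1 or 3 the calls went from 11 to 7. MLXIP, which encodes MondoA, rose by 0.18 (limma, adjusted p = 0.0349), and its partner MLX fell from 4.73 ± 0.03 to 4.17 ± 0.04 (SD, n = 3 per group, with adjusted p = 1.9e-04 by limma). The ubiquitin ligase genes NEDD4 and NEDD4L rose by 0.23 and 0.22. Of the other alpha-arrestins, ARRDC2 fell by 0.23, and ARRDC1 (-0.10, adjusted p = 0.182) and ARRDC3 (0.20, adjusted p = 0.0731, limma) did not pass. HK2, a hexokinase, measured 4.28, 4.24 and 4.23 in parental and 2.20, 2.24 and 2.07 in adapted samples. TXNRD1, the thioredoxin reductase, fell by 1.17, and SLC2A1, the glucose transporter whose surface level TXNIP limits, fell by 0.81. TXN, the thioredoxin that TXNIP inhibits, fell by 0.79.

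**Figure D4:**
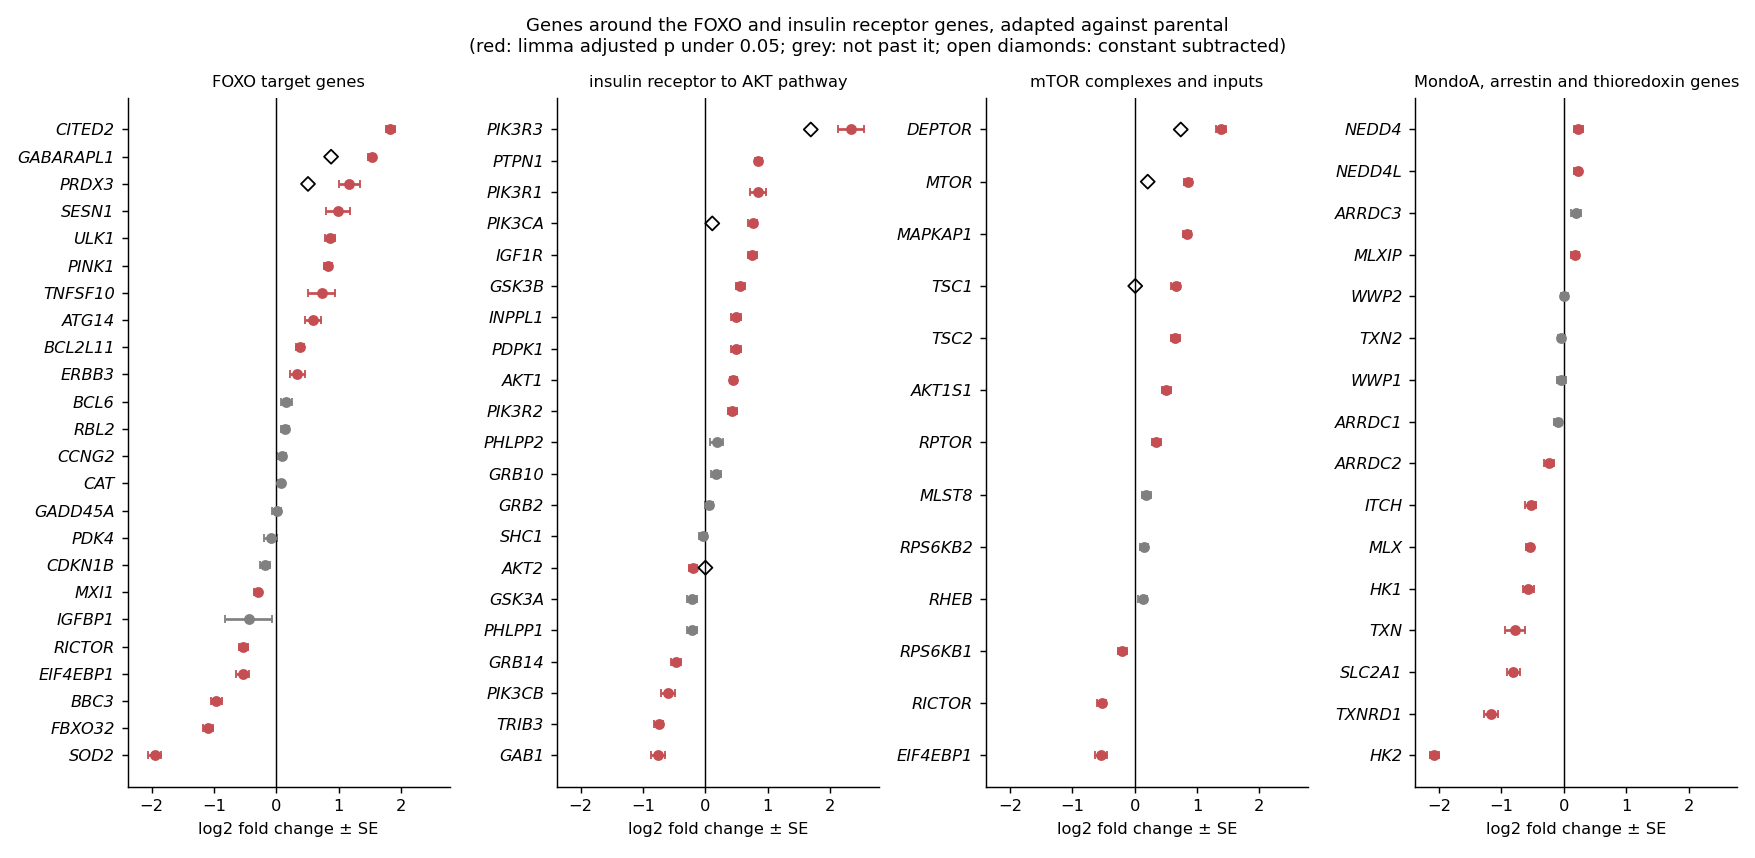
Log2 fold change (adapted against parental, point, with SE) of tested genes in 4 lists around the FOXO and insulin receptor genes. Red points passed an adjusted p of 0.05 (limma) and grey points did not, and open diamonds show the value with the gene's constant subtracted where it was still tested, as for PIK3R3 (2.34 and 1.69) and TSC1 (0.66 and 0.01).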

How the data were processed

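The authors deposited 1 table of log2 values for the 6 samples, with no unit named. Since 2 to the power of a value, minus 1, has 6 decimals in 27069 of 27216 rows, the scale was taken as log2(FPKM + 1). The decimals do not show whether values were scaled by length, which was assumed. The submitters' processing notes name hg38, Bowtie2 2.1.0, STAR and edgeR without roles, and the step that gave these values is not given in the sources used here. The study's methods name a test that needs read counts, so limma 3.58.1 (R 4.3.3, eBayes with an intensity trend, unpaired) was used on rows with a mean of at least 1. It was tested on simulated data with 200 of 12656 rows changed by 1 on the log2 scale, and recovered 87% of them. Of the simulated calls, 3.33% were unchanged rows. The simulated noise was independent between rows, and far fewer rows were changed than the 7202 called here. These shares therefore do not carry over to the real data. Table columns named for DMSO and Osi were matched to 0 h and 72 h samples by group and number. Single values were compared by two-sided exact permutation tests (Python 3.11). Rows off 6 decimals (147) were kept as deposited, and a constant was sought from 0.01 to 0.99 in steps of 0.01.

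The 10 genes and the gene lists were chosen with earlier results of these data known. Named besides the 10 were their direct partners, up to 3 genes of each list that rose most and 3 that fell most past the threshold without overlap, and for each of the 10 the most alike gene. AKT1, AKT2, SESN1, ULK1, PINK1, TSC1 and TSC2 and the marker and silent genes were named after their values were seen. Gene positions are of GENCODE v29 and start windows of RefSeq, both GRCh38. All 10 genes had a window, and together they had 15. Some list genes were counted with their list and are not reported here by name. Alternatives were other pseudocounts, filters, scalings, priors, a replicate block, leaving out each sample, a fold change limit and subtracting the constants.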

Additional observations from a re-analysis of the deposited data

How the results depend on the processing

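No depth is known, so counting error is not given, and 3 samples against 3 cannot give an exact p below 0.1. Of 331 values recomputed under the alternatives, 303 kept their direction and side of the threshold, or moved less than the limits set for values with no test, and none changed direction. With a mean of at least 3 required, fewer rows were tested, and 4532 rows (7202 as reported), 4 of the 10 genes (7) and 9 FOXO regulators (15) passed. Requiring a log2 fold change of at least 1 left 1328 rows, 3 of the 10 genes, 5 FOXO targets, 2 FOXO regulators, 1 gene of the receptor to AKT path, 1 mTOR gene and 2 of the MondoA list. FOXO1 passed after quantile normalization (-0.291) and without an intensity trend (-0.224, adjusted p = 0.0488, limma). INSR did not pass without the filter (0.245), after quantile normalization (0.195) or with the replicate block (0.245, adjusted p = 0.0526, limma), and lay between 0.192 and 0.307 with a sample left out. IRS2 did not pass with its constant subtracted (0.213), and the difference between IRS2 and IRS1 then changed by -0.902. With 0.1 in place of the added 1, ARRDC4 changed by 1.464, and the within-sample differences changed by -0.240 (FOXO1 minus FOXO3), 1.224 (FOXO4 minus FOXO3), -1.464 (FOXO1 minus FOXO4) and 0.443 (TXNIP minus ARRDC4), by construction, since low values are compressed less. With a sample left out, between 7 and 12 genes of the MondoA list and between 10 and 17 FOXO regulators passed. The cause was not tested. The replicate block gave 6761 rows and 6 of the 10 genes, and changed no other call among the 10. Deviations of same-numbered samples correlated at -0.051, -0.031 and -0.020, and no sample correlated best with its own number, so the numbers were not taken as pairs.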

Other observations

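Rows whose values carry a constant also occurred in the gene lists. Of 107 genes in the 5 lists of FOXO targets, FOXO regulators, receptor to AKT path, mTOR complexes and MondoA partners, each counted once, 9 (8.41%) were off 6 decimals, beside 0.54% of all 27216 rows. These shares are of unlike sets, since the whole table includes 7260 rows without a gene symbol (NewGene_). The lists were also chosen with earlier results of these data known. In 7 of the 9 the constant was 0.65 in the adapted samples, as in IRS2, in 1 it was 0.66 in the adapted samples (PRDX3), and in 1 it was 0.2 in the parental samples (AKT2). Among the 7 were DEPTOR, GABARAPL1, MTOR, PIK3CA, PIK3R3 and TSC1, and the whole table held 35 rows with this constant. As deposited, all 9 passed the threshold (limma, adjusted p under 0.05), and with the constants subtracted 5 passed. How the constants came into the table was not tested.

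For each of the 10 genes, the named gene most like it over the 6 samples was found by Pearson's r among 11707 tested rows with gene symbols. These were SIPA1L2 for FOXO1 (r = 0.9892), SCAI for FOXO3 (0.9897), CEP250 for FOXO4 (0.9998), LRRC47 for INSR (0.9983) and TRIM56 for IRS1 (0.9998). For IRS2 as deposited it was ANAPC2 (0.9987), for PIK3IP1 VPS41 (0.9998), for KLHL24 FAM13B (0.999), for TXNIP ETFDH (0.9999), whose adapted values carry a constant of 0.66, and for ARRDC4 TFDP2 (0.9995). The 6 points fall into 2 groups, so these values describe these samples only and carry no test.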
